A study of Mus musculus with 3 samples.

Results

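Endothelial barcodes that carried platelet RNA were analysed in droplet single-cell RNA sequencing libraries of mouse lung endothelial cells (ECs). A barcode marks the RNA of 1 droplet, and UMIs, short random tags added before amplification, let captured RNA molecules be counted 1 by 1. A barcode was counted here when it held 1000 to 5000 genes, under 20% of UMIs from mitochondrial genes, at least 2 UMIs of the endothelial genes Pecam1 and Cdh5 together and at least 5 UMIs of the platelet genes Pf4 and Ppbp together. Of 31947 barcodes within the gene and mitochondrial limits, 31092 were endothelial by this definition and 1439 of these carried platelet RNA. They numbered 436 of 11231 endothelial barcodes in the control library, 522 of 10583 in the 6 h library and 481 of 9278 in the 30 h library. The reference consisted of the 25788 endothelial barcodes without any Pf4 or Ppbp UMI, 9612 in the control, 8663 in the 6 h and 7513 in the 30 h library.

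All mice were wild-type C57BL/6. Control mice received PBS through the tail vein and their lungs were taken after 6 h, whereas the other groups received 200000 B16-F10 melanoma cells in 100 µl and were taken after 6 h or 30 h. After collagenase digestion, Pecam1-positive and Ptprc-negative cells were sorted, and dye-labelled melanoma cells were sorted into the 6 h library too, per its label. Each group was 1 library of pooled mice, 2 per treatment in the labels and more in the study's methods, and no PBS control was taken at 30 h, so the time after injection cannot be told apart from other differences of that library. There is therefore no replicate error, no test was made between the libraries, and the 95% intervals given here cover counting error only.

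Platelets are cell fragments without a nucleus that are released by megakaryocytes, also within the lung, and they keep a pool of megakaryocyte RNA. They bind to activated or injured endothelium and to tumor cells in the circulation through surface receptors such as the GPIb-IX-V complex, the integrin αIIbβ3 and CLEC-2, and release chemokines, growth factors and coagulation factors from their granules. Pf4 (platelet factor 4) and Ppbp (pro-platelet basic protein), the genes used to choose the barcodes, encode 2 of the chemokines of the α-granules.

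The libraries held 140601123, 132566934 and 124085451 UMIs in the control, 6 h and 30 h library. The barcodes with platelet RNA had a median of 8346, 8911.5 and 8811 UMIs, against 7655.5, 7885 and 8593 in the reference. Doublet scoring marked 8.72%, 8.81% and 7.07% of them and 9.08%, 8.21% and 7.08% of the reference, and marked barcodes were kept. The number marked per library was set by the expected rate. The median score was higher with platelet RNA, at 0.132, 0.120 and 0.104, against 0.0960, 0.0890 and 0.0733 in the reference. The marked share was 15.9%, 14.7% and 12.9% at 2 to 4 Pf4 and Ppbp UMIs and 0% at 50 or more. Between 23 and 39 barcodes within the limits occurred in both libraries of a pair, and 1 of them carried platelet RNA in both.

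The share of endothelial barcodes with platelet RNA was 3.88% (95% exact interval 3.53 to 4.26%) in the control, 4.93% (4.53 to 5.36%) in the 6 h and 5.18% (4.74 to 5.66%) in the 30 h library. The 6 h share was 1.27 times the control share (1.12 to 1.44) and the 30 h share 1.34 times (1.18 to 1.52), whereas the 6 h and 30 h shares had overlapping intervals (ratio 1.05, 0.932 to 1.19). At a minimum of 10 Pf4 and Ppbp UMIs the shares were 2.30%, 2.86% and 2.26%, so the 6 h library stayed above the control (ratio 1.25, 1.06 to 1.47) and the 30 h library did not (0.985, 0.823 to 1.18). At a minimum of 20, the interval of the 6 h ratio included 1 as well (1.14, 0.902 to 1.44). At a minimum of 50, met by 30, 45 and 24 barcodes, the ratio to the control was 1.59 (1.004 to 2.52) at 6 h and 0.968 (0.567 to 1.66) at 30 h. The 30 h share was then 0.608 times the 6 h share (0.371 to 0.998). With barcodes thinned to 2000 UMIs and a minimum of 2, the shares were 3.95%, 4.39% and 4.52% of 11036, 10386 and 9167 barcodes, and 195, 197 and 111 shallower ones were left out. The ratio to the control was then 1.11 (0.977 to 1.26) at 6 h and 1.14 (1.00 to 1.30, with a lower bound just above 1) at 30 h.

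Barcodes with little or no endothelial RNA carried platelet RNA too. Among barcodes within the limits that had fewer than 2 Pecam1 and Cdh5 UMIs, the share was 4.36% (2.27 to 7.50%, 12 of 275) in the control, 6.67% (4.27 to 9.84%, 23 of 345) in the 6 h and 8.94% (5.62 to 13.3%, 21 of 235) in the 30 h library. Their median depth was 2504, 2632 and 2770 UMIs, against 7782, 8033 and 8675.5 in the endothelial barcodes. The share of all endothelial barcodes was below this share in each library, but within its interval in the control and at 6 h. Endothelial barcodes under 2500 UMIs had shares of 3.79%, 4.29% and 5.87%, and those of 2500 to under 5000 UMIs 4.19%, 4.84% and 7.81%. Among barcodes within the limits without any Pecam1 or Cdh5 UMI, the share was 2.44% (0.506 to 6.96%, 3 of 123), 5.93% (2.42 to 11.8%, 7 of 118) and 6.38% (2.38 to 13.4%, 6 of 94). In the control this was below the endothelial share. The sets differ in depth and the smaller ones hold few barcodes. Neither expression of platelet genes by ECs nor a difference in such expression was tested. Near-empty droplets with 100 to 299 genes held 0.0829, 0.0978 and 0.221 Pf4 and Ppbp UMIs each, and 0.0364, 0.0487 and 0.0834 without the droplets that had 5 or more. Both were highest in the 30 h library, and the part of this RNA in the shares was not tested.

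The number of Pf4 and Ppbp UMIs varied widely among the chosen barcodes. Its median was 12 in the control (quartiles 7 and 23, maximum 242), 11 in the 6 h (7 and 22, maximum 227) and 9 in the 30 h library (6 and 16, maximum 143). At least 10 UMIs were found in 59.2% of them in the control (54.4 to 63.8%), in 58.0% at 6 h (53.7 to 62.3%) and in 43.7% at 30 h (39.2 to 48.2%). The 30 h library thus had the largest share of chosen barcodes close to the limit. Just outside the limit, 107, 100 and 118 endothelial barcodes had 4 UMIs, and just inside it, 50, 62 and 87 had 5. Both genes were detected in 92.4%, 90.2% and 88.8% of the chosen barcodes, with 1.88, 2.02 and 1.89 Pf4 UMIs per Ppbp UMI.

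Other platelet genes accompanied Pf4 and Ppbp in the same barcodes. A core of 19 further genes, restricted mainly to platelets and megakaryocytes, was counted per barcode. In the control, 393 of 436 chosen barcodes (90.1%) held at least 3 of the 19 genes, against 0.687% of the reference. The corresponding shares were 89.7% and 0.693% at 6 h and 86.1% and 1.12% at 30 h. The median of the core was 18, 18 and 13 UMIs per barcode, and 4, 10 and 9 barcodes had none.

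**Figure D1:**
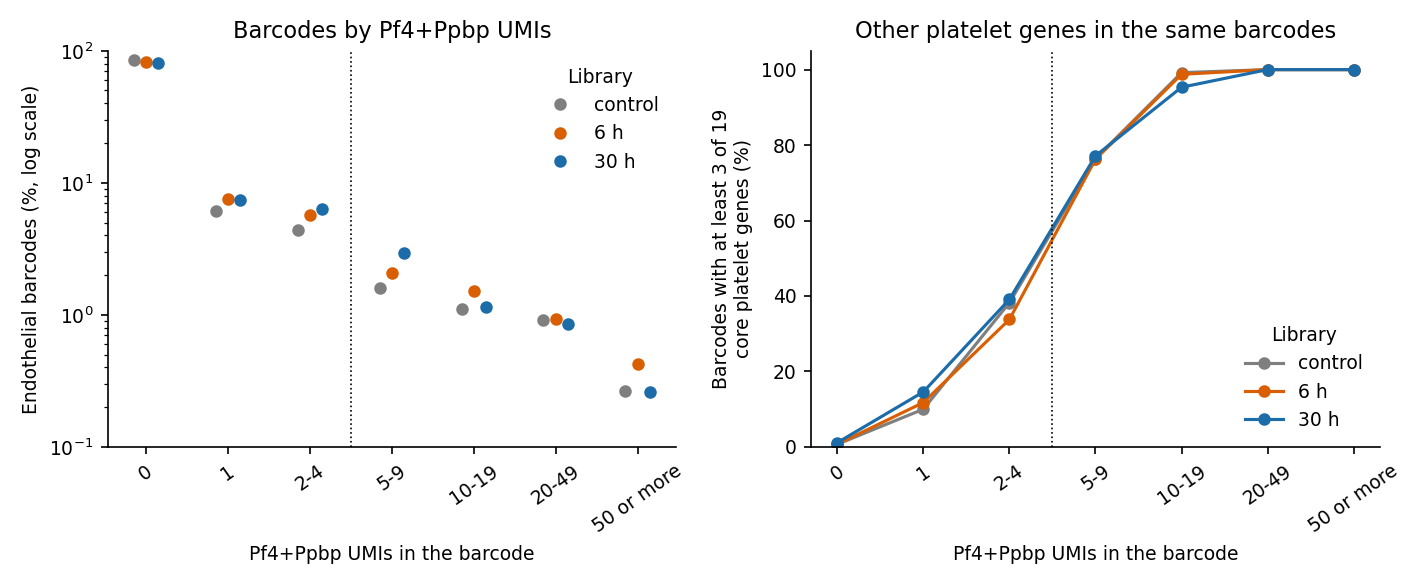
Left, percentage of endothelial barcodes (log axis) by their number of Pf4 and Ppbp UMIs, 1 point per library; right, percentage of the same barcodes with at least 3 of 19 other platelet genes. The dotted line marks the minimum of 5 UMIs; the share with 3 or more core genes climbs from 0.687 to 1.12% at 0 UMIs to 95.3 to 99.2% at 10 to 19 UMIs.

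The core genes were more frequent the more Pf4 and Ppbp UMIs a barcode held, on both sides of the limit. With 1 Pf4 or Ppbp UMI, 9.99%, 11.8% and 14.6% of endothelial barcodes held at least 3 core genes in the control, 6 h and 30 h library. With 2 to 4 UMIs this was 38.2%, 33.8% and 39.1%, with 5 to 9 UMIs 76.4%, 76.3% and 77.1%, and with 20 or more UMIs 100%. Below the limit, 1183, 1398 and 1284 endothelial barcodes had 1 to 4 Pf4 and Ppbp UMIs, and the chosen ones held 80.4%, 80.6% and 76.0% of all such UMIs in endothelial barcodes.

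The rule and core genes were a small part of the RNA of most of these barcodes. Together they made up a median of 0.404%, 0.359% and 0.286% of the UMIs of a chosen barcode, with maxima of 12.1%, 8.97% and 7.19%. Platelets hold RNA of other genes too, so the whole platelet part is larger, and it was not measured. Endothelial genes stood near their reference level when barcodes of all depths were summed, but less so in shallow barcodes. Each of 10 endothelial identity genes, 2 of which (Pecam1 and Cdh5) were used to choose both sets, differed by less than 2-fold from the reference, with a list median of -0.09, -0.08 and -0.09 on the log2 scale. Kdr, the VEGF receptor VEGFR2 and not used by the rule, had 367, 404 and 578 CPM against 389, 415 and 576 CPM. Without Pecam1 and Cdh5, the summed level of the identity genes was lowest in the barcodes with 50 or more Pf4 and Ppbp UMIs. It was 6336, 5645 and 5515 UMIs per 1000000 UMIs (CPM) there, against 7857, 7764 and 8041 CPM in the reference. In barcodes of 2500 to under 5000 UMIs, this sum was 5280, 5506 and 4943 CPM, against 7618, 6789 and 6489 CPM in the reference of that depth. At 5000 to under 10000 UMIs it was 7986.5, 8058 and 8133 CPM against 8345, 8296 and 8309 CPM. The reference of these sums was not weighted to endothelial class, unlike that of the list median and of Kdr. The part of class in the lower sums was not tested.

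Gene levels were compared as the CPM of the summed barcodes, with the reference weighted to the class mix of the chosen barcodes and 1 CPM added before the log2 ratio. The same barcodes were chosen by platelet genes, so these ratios are a description. A gene that is low in the reference reached the minimum of 5 CPM only through the chosen barcodes, so the counts below are given out of whole lists. Of 10391 genes with at least 5 CPM in either set, 160 (1.54%) were at least 2-fold higher than in the reference in all 3 libraries and 5 (0.0481%) at least 2-fold lower, with a median over all genes of -0.07, -0.07 and -0.06. All 19 core genes were among the higher ones, with a median log2 ratio of 5.31 in the control, 5.12 at 6 h and 5.02 at 30 h.

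Pf4, on chromosome 5 at 90772435 to 90773383 of mm10, had 1476 CPM in the control, 1426 at 6 h and 1151 at 30 h. The adjacent gene Ppbp, at 90768518 to 90770063 on the same strand, reached 784, 705 and 607 CPM. Both were 0 in the reference by its definition, so no ratio was given. Nrgn (neurogranin, a calmodulin-binding protein) had 1007, 926 and 763 CPM against 10.6, 12.4 and 12.8 CPM in the reference, and was detected in 96.3%, 94.1% and 92.7% of the chosen barcodes. It was the core gene found in the largest share of the barcodes in each library. Clec1b, which encodes the podoplanin receptor CLEC-2, had 458, 416 and 274 CPM against 7.02, 6.38 and 7.51 CPM and was detected in 75.5%, 75.1% and 65.5%.

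**Figure D2:**
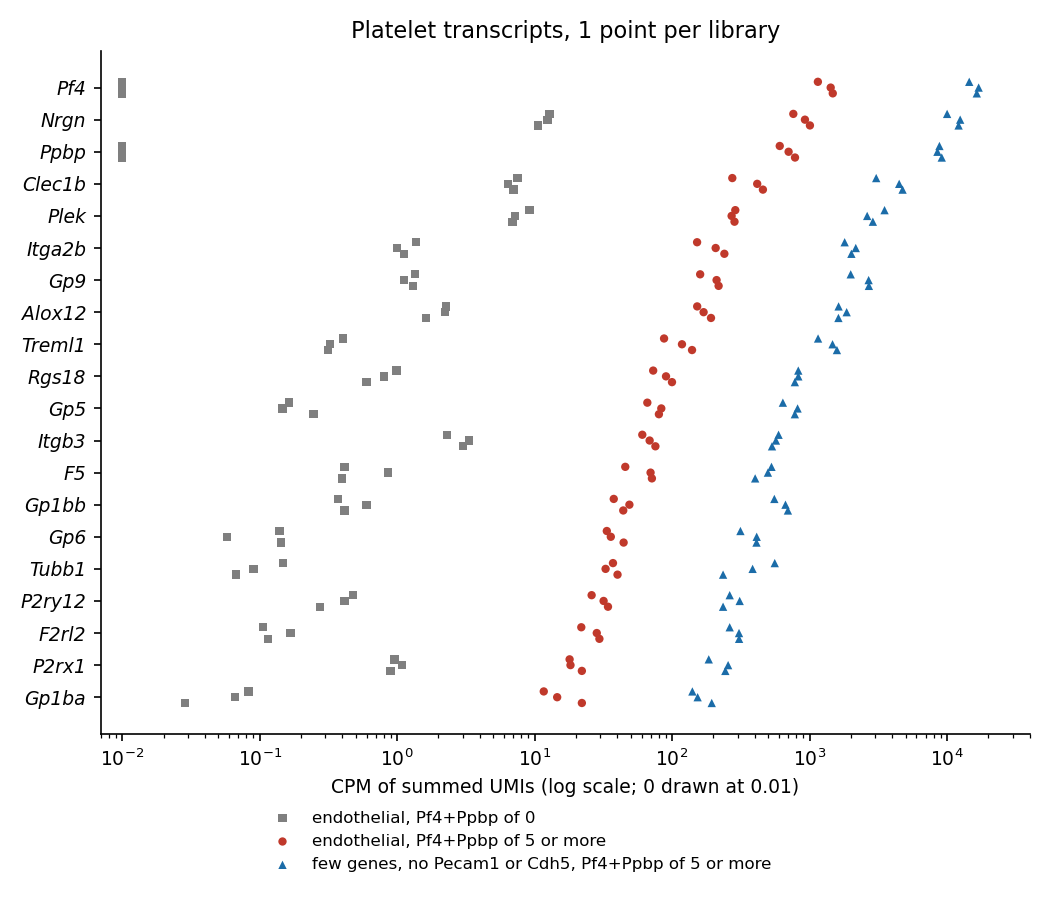
CPM (log axis) of platelet genes in reference barcodes (squares), endothelial barcodes with platelet RNA (circles) and barcodes with fewer than 1000 genes, no Pecam1 or Cdh5 UMI and at least 5 Pf4 and Ppbp UMIs (triangles), 1 point per library. Pf4 and Ppbp are 0 in the reference by definition and drawn at the left edge, and Gp9 lies at 160 to 218 CPM with platelet RNA and at 1.12 to 1.36 CPM in the reference.

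The von Willebrand factor receptor was present with all of its 4 subunits. Gp9 had 218, 211 and 160 CPM against 1.30, 1.12 and 1.36 CPM in the reference, a log2 ratio of 6.58, 6.64 and 6.10. Gp5 had 80.3, 83.5 and 66.1 CPM (log2 ratio 6.03, 6.20 and 5.85). Gp1ba and Gp1bb were lower in level, with 22.1, 14.6 and 11.7 CPM and with 44.2, 49 and 37.7 CPM, and the reads of Gp1bb are uncertain because it overlaps Sept5. Of the 6 genes of αIIbβ3 and its activators, Itga2b, Itgb3 and Fermt3 (kindlin-3) were at least 2-fold higher. Itga2b, the αIIb chain of the fibrinogen receptor, had 240, 208 and 152 CPM against 1.12, 1.00 and 1.37 CPM (log2 ratio 6.83, 6.71 and 6.02). The other three, Rap1b, Rasgrp2 and Tln1, were already at 72.8 to 449 CPM in the reference and did not reach 2-fold in all libraries.

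Receptors for the agonists of platelets and the proteins that relay their signals were present as well. The collagen receptor Gp6 had 44.4, 35.9 and 33.5 CPM against 0.143, 0.0582 and 0.140 CPM, and its signalling partner Fcer1g had log2 ratios of 4.29, 3.69 and 3.93, whereas the integrin Itga2, at 86.7 to 110 CPM in the reference, did not differ by 2-fold. Of the 6 receptors for thrombin, ADP, ATP and thromboxane, 4 were at least 2-fold higher. These were the thrombin receptor F2rl2 (PAR3) with log2 ratios of 4.78, 4.65 and 4.37, the ADP receptors P2ry12 (4.79, 4.53 and 4.19) and P2ry1 (3.21, 3.18 and 3.31), and the ATP-gated channel P2rx1 (3.61, 3.21 and 3.28). The thromboxane receptor Tbxa2r had 10.5, 8.16 and 27.7 CPM against 11.4, 8.94 and 28.8 CPM in the reference, and the thrombin receptor F2rl3 (PAR4) stayed under 5 CPM, with 0.808, 1.07 and 0.972 CPM. Of 9 signalling proteins, 7 were at least 2-fold higher, among them Plek (pleckstrin, a protein kinase C substrate) with log2 ratios of 5.17, 5.05 and 4.83 and Rgs18, a regulator of G-protein signalling, with 5.98, 5.66 and 5.21. The exceptions were the kinase Syk, with 11.3, 9.02 and 10.7 CPM against 6.45, 5.45 and 9.28 CPM, and the phospholipase Plcg2, under the minimum with 3.50, 3.44 and 4.62 CPM against 3.09, 3.17 and 5.37 CPM.

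Of the 12 granule cargo genes, Pf4 and Ppbp were fixed by the rule. Of the others, F5 (coagulation factor V), Thbs1 (thrombospondin-1), F13a1 (factor XIII) and Mmrn1 (multimerin-1) were at least 2-fold higher. Thbs1 had 208, 182 and 151 CPM against 9.70, 13.7 and 7.61 CPM. The other cargo genes, several of which ECs also express, did not reach 2-fold in all libraries. Among them, Ccl5 stayed under the minimum of 5 CPM, with 1.08, 1.5 and 0.486 CPM against 2.75, 3.60 and 0.644 CPM. Vwf (von Willebrand factor) had 212, 186 and 173 CPM against 175, 154 and 156 CPM, and Sparc had a log2 ratio of -0.03, -0.11 and -0.12. Alox12, the platelet 12-lipoxygenase, had log2 ratios of 6.20, 5.72 and 5.55, and Tbxas1 (thromboxane synthase) of 2.20, 2.16 and 2.14, whereas Ptgs1 (cyclooxygenase-1), at 162, 100 and 40.0 CPM in the reference, did not reach 2-fold, with 202, 120 and 55.2 CPM in the chosen barcodes.

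Cytoskeletal genes were higher in all 3 libraries for 12 of 12 members of the list, against 12.1% of all genes tested, and at least 2-fold higher for 7. Some members, such as Treml1 and Tubb1, reached 5 CPM only through the chosen barcodes, so their direction was fixed and the count is a description. Treml1, an α-granule membrane receptor that moves to the surface of activated platelets, had log2 ratios of 6.74, 6.49 and 5.98, and Tubb1, the β-tubulin of the marginal band, 5.27, 4.96 and 5.06. Tmsb4x (thymosin β4), an actin-binding peptide abundant in platelets, had 8906, 8436 and 9483 CPM against 2597, 2764 and 4099 CPM in the reference. Of 5 regulators of the megakaryocyte lineage, 3 were at least 2-fold higher, among them Gata1 and Nfe2, with Nfe2 ratios of 4.78, 4.50 and 3.20, and Zfpm1 (FOG1) differed by at most 0.06 on the log2 scale. Gfi1b stayed under the minimum as a mean, with 2.69, 5.15 and 0.243 CPM. The 10 genes outside the platelet lists that ranked highest by the smallest of their 3 ratios were Cd226, Pls1, Prkar2b, Tmem40, Mpig6b, Rbpms2, Bin2, Slc6a4, I830077J02Rik and Slc2a3. They include Mpig6b, an inhibitory receptor of platelets (log2 ratio 5.16, 4.94 and 4.45), and Slc6a4, the serotonin transporter (4.70, 4.28 and 4.76).

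The 250 bases before the annotated start of Pf4, Gp9, Itga2b and Clec1b (RefSeq, GRCm38.p6) are shown because these genes carry the signature across the granule, adhesion and CLEC-2 groups. Capitals mark letters that belong to 2 motifs. The ETS motif, bound by factors such as FLI1, was searched as AGGAAG and in the variant with the first letter changed to C, CGGAAG. The GATA motif, bound by factors such as GATA1, was searched as AGATAA and with a final G instead, AGATAG, and equally as TGATAA or, with a final G, TGATAG. All were searched on both strands. No 2 matches overlapped in these 4 windows.
Pf4, chr5:90772185-90772434, plus strand: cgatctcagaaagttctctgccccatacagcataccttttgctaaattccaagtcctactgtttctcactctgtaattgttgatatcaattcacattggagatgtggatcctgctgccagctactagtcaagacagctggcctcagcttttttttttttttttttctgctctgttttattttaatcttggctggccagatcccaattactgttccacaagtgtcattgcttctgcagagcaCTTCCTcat
Gp9, chr6:87777820-87778069, plus strand: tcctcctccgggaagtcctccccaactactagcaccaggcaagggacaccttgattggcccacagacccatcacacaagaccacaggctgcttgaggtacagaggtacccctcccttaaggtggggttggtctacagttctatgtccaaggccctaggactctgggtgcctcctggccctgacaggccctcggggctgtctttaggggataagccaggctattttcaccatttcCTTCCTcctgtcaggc
Itga2b, chr11:102469884-102470133, minus strand: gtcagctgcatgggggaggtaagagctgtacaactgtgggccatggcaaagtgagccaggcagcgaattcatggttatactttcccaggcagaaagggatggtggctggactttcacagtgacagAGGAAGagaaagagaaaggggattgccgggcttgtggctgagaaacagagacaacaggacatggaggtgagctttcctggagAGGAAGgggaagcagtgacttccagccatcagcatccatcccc
Clec1b, chr6:129397047-129397296, plus strand: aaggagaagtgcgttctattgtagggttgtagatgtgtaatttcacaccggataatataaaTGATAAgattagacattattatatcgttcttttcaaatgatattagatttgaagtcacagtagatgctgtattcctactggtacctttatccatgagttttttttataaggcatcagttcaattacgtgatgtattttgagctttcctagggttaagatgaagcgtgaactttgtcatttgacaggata
Of the 21 rule and core genes, 18 had an entry in the promoter table. The GATA letters were found in 7 of 18 (38.9%) and in 27.1% of 27025 promoters of the same length, the ETS letters in 10 (55.6%) and in 39.0%, and both in 4 (22.2%) and in 9.38%. A match is a description of the letters and not a binding site.

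The platelet genes stood in similar proportions in barcodes with few genes and no UMI of the endothelial rule genes. A set of 320, 423 and 387 barcodes with at least 100 and fewer than 1000 genes had no Pecam1 or Cdh5 UMI and at least 5 UMIs of Pf4 and Ppbp, with a median of 572.5, 584 and 554 UMIs in all. Their rule and core genes made up 5.79%, 5.62% and 4.63% of UMIs. Both sets were chosen by the same minimum of Pf4 and Ppbp. Levels were taken per 100 Pf4 UMIs, as the excess over the reference in the endothelial barcodes and over near-empty droplets in the few-gene barcodes. As a mean of the 3 libraries, Nrgn came to 65.6 in the endothelial and 71.2 in the few-gene barcodes, Clec1b to 27.5 and 25.5, Gp9 to 14.4 and 15.3, and Itga2b to 14.6 and 12.5. Over 20 genes the mean endothelial value was 0.797 times (Gp1bb) to 1.5 times (F5) the mean few-gene value. Single libraries reached further, from 0.699 times (Gp1bb) to 1.97 times (F5), both in the control, where Tubb1 came to 2.71 against 1.44.

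**Figure D3:**
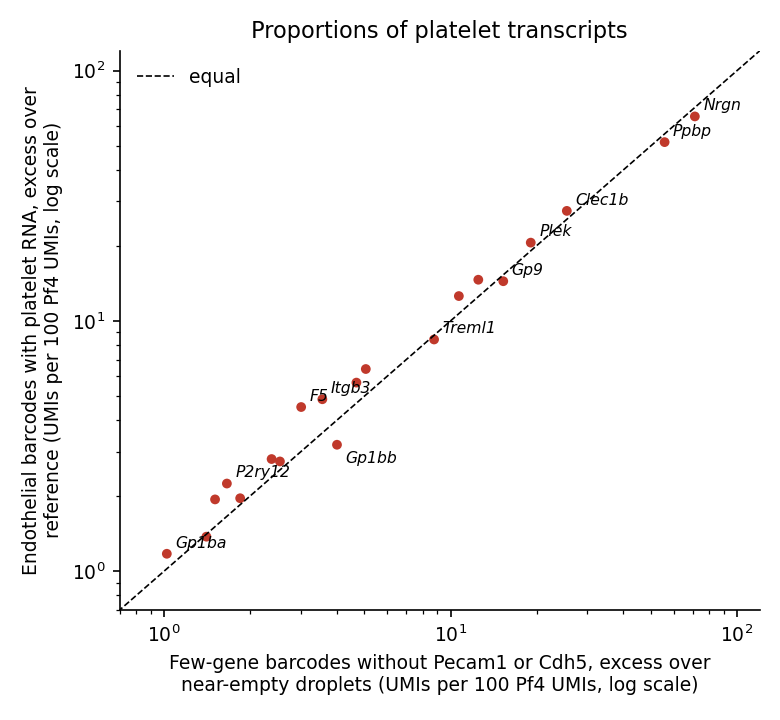
UMIs of 20 platelet genes per 100 Pf4 UMIs in the endothelial barcodes with platelet RNA (vertical axis) and in few-gene barcodes without Pecam1 or Cdh5 (horizontal axis), both axes logarithmic, as means of the 3 libraries. As these means, the points lie from 0.797 times for Gp1bb to 1.5 times the few-gene value for F5.

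Some genes of the platelet pool differed between the libraries. Per 100 Pf4 UMIs, Clec1b came to 30.6 in the control, 28.8 at 6 h and 23.2 at 30 h, and in the few-gene barcodes to 28.9, 26.5 and 21, the same order in both sets. Plek came to 18.8, 18.5 and 24.3, and in the few-gene barcodes to 17.5, 15.4 and 24.2. Clec1b was 8.49% (8.11 to 8.89%), 8.32% (7.97 to 8.69%) and 6.71% (6.34 to 7.10%) of all UMIs of the rule and core genes in the endothelial barcodes. Its share was thus lower in the 30 h library than in either of the others. These intervals treat each UMI as independent, although 1 barcode can hold many, so they are too narrow. For Plek the shares were 5.28% (4.97 to 5.60%), 5.42% (5.14 to 5.72%) and 7.06% (6.67 to 7.45%), the highest in the 30 h library. With 1 library per group, this difference cannot be told apart from differences between libraries.

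Endothelial barcodes with platelet RNA were then assigned to endothelial classes, from clusters made without platelet genes and without other genes that were at least 1.5-fold higher in these barcodes. General capillary-like (gCap-like) clusters, named from Gpihbp1, Aplnr, Lpl, Kit and Plvap, held 62.4%, 61.9% and 52.6% of the barcodes with platelet RNA and 56.7%, 58.2% and 52.7% of all endothelial barcodes. Unnamed clusters held 17.7%, 21.3% and 29.1%, aerocyte-like (aCap-like) clusters 8.94%, 8.24% and 8.11%, artery-like, vein-like and lymphatic-like clusters the fewest, and clusters with markers of a second cell type the rest. Different gCap-like clusters made up the class in different libraries: 4578 of the 4733 barcodes of the largest came from the 30 h library, whereas the next 3 came mainly from the control and 6 h libraries.

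Within the classes, the gCap-like barcodes carried platelet RNA most often among the named blood endothelial classes. Their share was 4.27% (3.79 to 4.8%, 272 of 6363) in the control, 5.25% (4.70 to 5.83%, 323 of 6157) at 6 h and 5.18% (4.57 to 5.84%, 253 of 4885) at 30 h. The aCap-like share was 2.61%, 3.45% and 3.06%, the artery-like share 1.35%, 2.45% and 2.15%, and the vein-like share 1.42%, 1.89% and 2.00%. The unnamed clusters had higher shares than the gCap-like ones, with 6.00%, 7.03% and 8.04%, and the clusters with markers of a second cell type had 4.55%, 4.58% and 7.13%. Among the named classes, the order gCap-like, aCap-like and then artery-like and vein-like held in each library, and in each library the gCap-like interval lay above the other 3, whose intervals overlapped each other. As means of the 3 libraries, the gCap-like share was 1.61 times the aCap-like (1.34 to 1.95), 2.47 times the artery-like (1.75 to 3.49) and 2.77 times the vein-like share (1.90 to 4.03). When each barcode was assigned by its own marker UMIs instead of by its cluster, these ratios were 1.16 (0.984 to 1.37), 1.06 (0.920 to 1.22) and 1.72 (1.33 to 2.21). The order of the classes was then not kept, since the mean artery-like share (4.32%) lay above the aCap-like share (3.94%), and the gCap-like share was set apart from the vein-like share only.

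**Figure D4:**
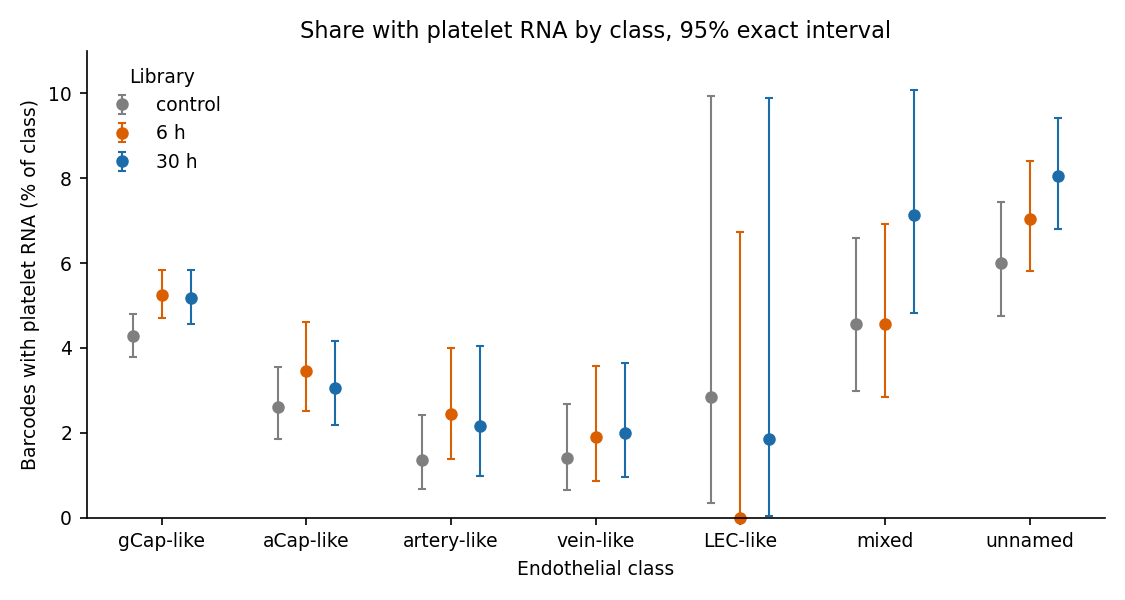
Percentage of the endothelial barcodes of each class that carried platelet RNA, 1 point per library with its exact 95% interval for counting error. In each library the gCap-like share (4.27 to 5.25%) lies above the aCap-like (2.61 to 3.45%), artery-like (1.35 to 2.45%) and vein-like (1.42 to 2.00%) shares.

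Lymphatic-like barcodes, which line vessels without blood, carried platelet RNA in 2 of 70, 0 of 53 (exact 95% upper bound 6.72%) and 1 of 54 cases, too few to be set apart from the other classes. The highest share of all clusters, pooled over the libraries, was in an unnamed one with a median of 2823 UMIs and Cldn18, Cenpb and S100a6 as leading genes. Platelet RNA was found in 260 of its 2784 barcodes (9.34%, 8.28 to 10.5%), and in 8.50%, 9.35% and 9.78% in the control, 6 h and 30 h library. Clusters with few barcodes in a library could be higher there, such as the largest gCap-like cluster with 10.9% of its 64 control barcodes. A second unnamed cluster of like depth, with a median of 2953 UMIs and noncoding RNAs as leading genes, had it in 11 of 682 (1.61%, 0.808 to 2.87%). The share thus differed between clusters of like depth. Thinned to 2000 UMIs with a minimum of 2, the gCap-like share was 4.02%, 4.36% and 3.47% and that of the unnamed clusters 8.97%, 8.79% and 11.4%, so the gCap-like share was then lowest in the 30 h library. Thinning left out 135 of 1283, 146 of 1579 and 94 of 1741 barcodes of the unnamed clusters but 43, 29 and 9 gCap-like ones, so the thinned unnamed share is that of a deeper subset.

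Genes of 3 of the 7 lists of the response to melanoma cells were mostly slightly lower in barcodes with platelet RNA than in the reference of the same library, and those of the other lists went both ways or showed no common direction. The panel of 7 genes that the study used for reactive capillaries (Pim3, Bcl3, Inhbb, Osmr, Tmem252, Adamts9 and Scarb1) was lower in all 3 libraries for 7 of 7, with medians of -0.24, -0.23 and -0.28, and was chosen by the study on samples that include these. For all genes tested, 3972 of 10391 (38.2%) were lower and 1261 (12.1%) higher in all 3 libraries. Of 14 immediate early genes 13 were lower in all 3, such as Fos with 1296, 1956 and 728 CPM against 1584, 2434 and 908 CPM, and no gene of either list reached 2-fold in all 3 libraries. Of 18 NF-κB and JAK-STAT genes, 12 reached 5 CPM and 11 were lower, such as Socs3 with 475, 741 and 347 CPM against 587, 896 and 417 CPM. Of 9 heat shock genes 2 were lower and 1 higher in all 3 libraries, the higher one being Hsp90aa1 with 218, 463 and 223 CPM against 197, 439 and 199 CPM. Of 16 interferon genes 4 were lower and 2 higher, and of the 15 of 17 clock and glucocorticoid genes that reached 5 CPM, 5 were lower and 0 higher. Of 10 genes listed for the 30 h response 3 were lower and 2 higher, among these Gclm with 267, 292 and 134 CPM against 240, 193 and 71.8 CPM. None of these genes was at least 2-fold higher or lower in all 3 libraries.

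In gCap-like barcodes, the same panel was compared with the control, with and without platelet RNA. The study chose it on samples that include these, so its rise at 6 h is a description. Pim3, the kinase on which the study centred, had 97.7 CPM in the control, 150 CPM at 6 h and 68.8 CPM at 30 h with platelet RNA, and 103, 170 and 81.8 CPM without. Tmem252 had 53.6, 150 and 84.3 CPM with and 82.2, 188 and 123 CPM without. All 7 panel genes were higher at 6 h than in the control in both sets, with a median log2 ratio of 1.14 with and 0.71 without platelet RNA, and 3 of 7 were higher at 30 h (medians -0.03 and -0.15). The 6 h ratio was larger with platelet RNA for Inhbb, Osmr, Tmem252, Adamts9 and Scarb1. It was smaller for Pim3 (0.61 against 0.71) and Bcl3 (1.14 against 1.35). The 6 h level of all 7 was lower with platelet RNA than without. Of all 9945 genes with at least 5 CPM in gCap-like barcodes without platelet RNA, 51.4% were higher at 6 h than in the control with platelet RNA and 46.9% without, and at 30 h 45.5% and 41.8%. Inhbb of the panel rested on few UMIs with platelet RNA, 4 in the control and 26 at 6 h. The difference between the sets was not tested.

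Genes through which ECs bind platelets or control clotting were compared in the same way. Of the 20 genes of this list, 16 reached 5 CPM and 0 were at least 2-fold higher or lower in all 3 libraries, and the medians were -0.09, -0.17 and -0.19. Thbd (thrombomodulin), which turns thrombin towards protein C, had 813, 675 and 911 CPM against 863, 748 and 1011 CPM. Selp (P-selectin), which both platelets and ECs store in granules, had 6.73, 21 and 4.86 CPM against 5.87, 13.5 and 2.18 CPM, and in the few-gene barcodes 67.8, 34.1 and 29.6 CPM. In gCap-like barcodes alone, Selp had 7.01, 5.19 and 4.64 CPM with platelet RNA, from 17, 16 and 12 UMIs, against 0.482, 1.64 and 0.402 CPM without.

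**Figure D5:**
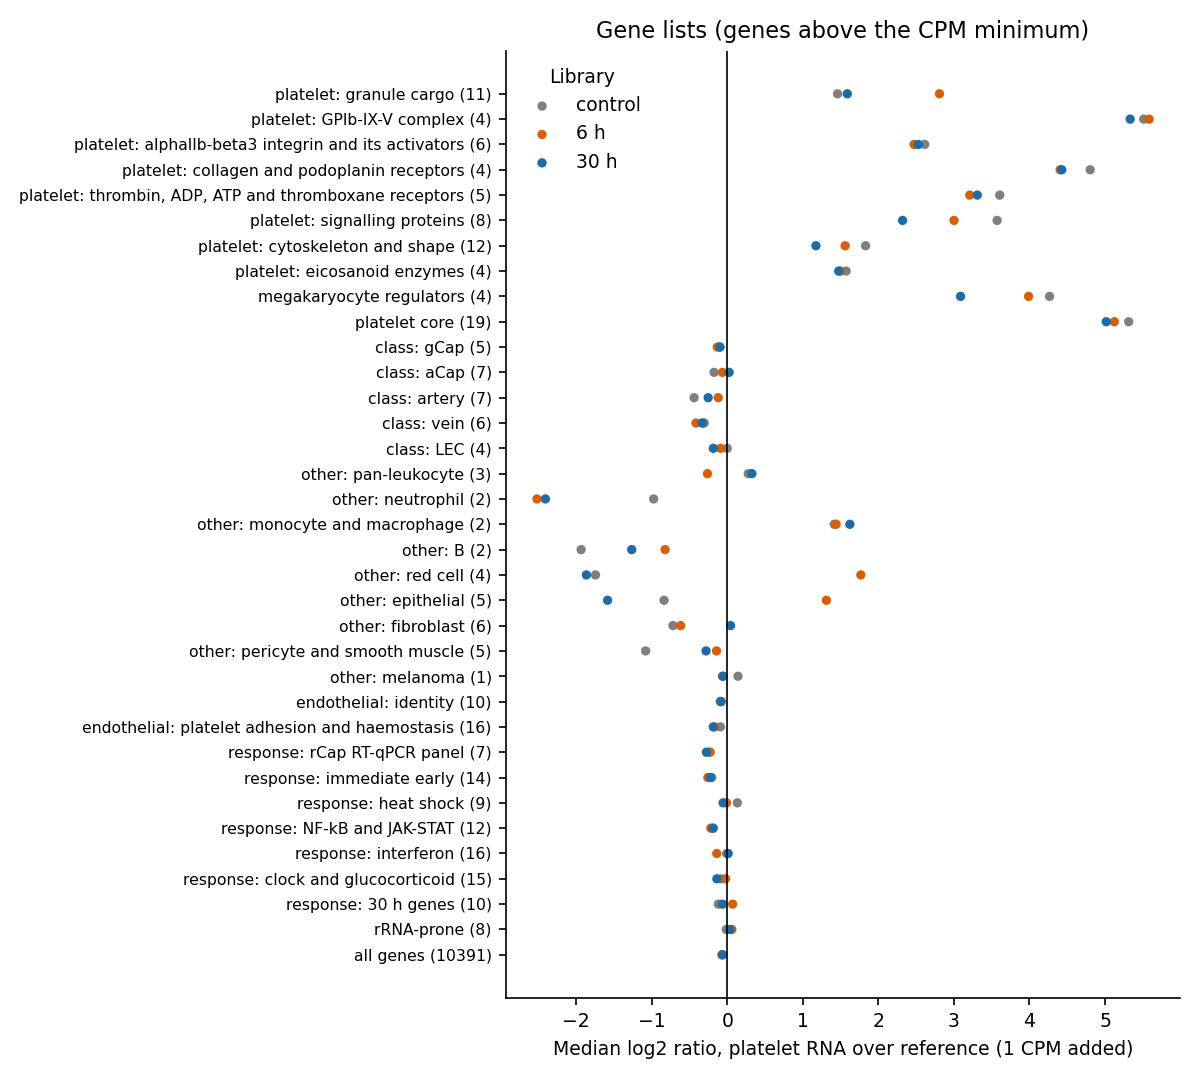
Median log2 ratio of each gene list between the endothelial barcodes with platelet RNA and the reference, with 1 CPM added, 1 point per library. The platelet core lies at 5.02 to 5.31, whereas the endothelial identity and response lists lie near 0 and the red cell list differs in sign between libraries.

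Markers of other cell types were examined in the same barcodes. Ptprc, the leukocyte gene used as the negative sort marker, had 5.12, 1.07 and 12.6 CPM against 4.05, 5.45 and 9.88 CPM, and of the 6 pan-leukocyte genes only Laptm5 was at least 2-fold higher in all libraries. Laptm5 had 70.3, 63.4 and 46.7 CPM against 2.97, 3.61 and 4.8 CPM, and 769, 717 and 451 CPM in the few-gene barcodes with platelet RNA. Lyz2 (lysozyme), the only one of 7 monocyte and macrophage genes that was at least 2-fold higher in all libraries, had 268, 333 and 183 CPM against 81.9, 71.1 and 44.1 CPM, and 3116, 3184 and 2153 CPM in the few-gene barcodes. Only 2 genes of this list reached the mean of 5 CPM, and both were higher in all 3 libraries. The second, Ctss, had 8.35, 7.73 and 12.2 CPM against 3.26, 4.49 and 4.65 CPM. It reached 5 CPM only through the chosen barcodes, so its direction was fixed. Under the minimum, Csf1r had 0.808, 0.215 and 3.65 CPM against 0.893, 1.10 and 0.874 CPM. Cd68 had 4.04, 5.15 and 5.35 CPM against 2.63, 6.12 and 2.36 CPM. In each library 2 barcodes held at least 4 UMIs over 3 pan-leukocyte genes (0.459%, 0.383% and 0.416% of 436, 522 and 481, against 0.177%, 0.300% and 0.479% of the reference). For neutrophil, T and NK and melanoma markers 0 barcodes did, and of the reference at most 0.104%, 0.133% and 0.104% in any library, too few for a difference to be detectable at these numbers. For monocyte and macrophage genes these were 2, 1 and 2 barcodes (0.459%, 0.192% and 0.416%), against 0.0416%, 0.104% and 0.0266% of the reference. Epithelial genes gave 8.72%, 3.64% and 2.29%, against 8.06%, 2.52% and 1.53%. Fibroblast genes gave 0.688%, 0.575% and 1.66%, against 1.17%, 0.958% and 1.28%. Pericyte and smooth muscle genes gave 0.459%, 0.383% and 1.66%, against 0.895%, 0.716% and 0.732%. For B cell genes 1 barcode did, in the 30 h library (0.208%, against 0.293%).

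Red cell RNA was more frequent with platelet RNA. At least 4 UMIs over 3 of the 5 red cell genes were found in 82.1%, 64.2% and 12.9% of the barcodes with platelet RNA and in 73.1%, 49.7% and 2.16% of the reference. As for the other cell types above, these shares were not weighted to class or depth, in which the 2 sets differ. The part of class and depth in the difference was not tested. The summed levels went in different directions: Hbb-bs had 561, 2933 and 78.8 CPM against 1842, 849 and 443 CPM, and 1 barcode held 4815 of the 13656 UMIs at 6 h. Single barcodes also held 5995 of the 6445 Sftpc UMIs at 6 h and 184 of the 188 Dcn UMIs at 30 h, a surfactant gene of alveolar epithelium and a fibroblast gene. The part of these barcodes in other results was not tested.

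The 5 genes that were at least 2-fold lower in all libraries were S100a9, Arhgap15, Fabp4, Cdh13 and Kcnq5. S100a9, a neutrophil gene, had 1.08, 2.15 and 0.243 CPM against 4.10, 20.6 and 8.07 CPM. Arhgap15, which led a cluster of 93 barcodes with leukocyte markers, had 0.808, 1.29 and 6.08 CPM against 7.52, 8.78 and 22.8 CPM. Of this cluster, 5 barcodes carried platelet RNA (5.38%, 1.77 to 12.1%), and its part in the lower level was not tested. Fabp4 and Cdh13 led an unnamed cluster of 137 barcodes of which 3 carried platelet RNA, and Kcnq5 led a cluster of 128 with pericyte markers, of which 3 did. The next 5 by the same ranking, Igkc, Cd79a, Igfbp5, Angptl4 and Nr5a2, were lower in all 3 libraries but not by 2-fold in each, with the ratio nearest to 0 at -0.99 to -0.80 on the log2 scale. The count of 5 depended on the setting: it was 19 without class weighting, 14 without the control, 15 without the 6 h and 12 without the 30 h library, and 0 in gCap-like barcodes alone.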

How the data were processed

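Barcodes, gene lists and tests were chosen with earlier results of these data known. The authors deposited unfiltered, not normalized UMI counts per gene and barcode, and the file headers give Cell Ranger 7.2.0 as their source. The submitters' processing notes also name Seurat 4.4.0 and the mouse build mm10. Whether intronic reads were counted is not given in the sources used here. Droplet RNA reaches barcodes of other cells, and counting of overlapping genes can split reads. Of 32285 genes, 32158 were found in GENCODE M21, which gave the positions.

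Groups came from the treatment in the labels. Shares have exact Clopper-Pearson 95% intervals and ratios of shares log-normal ones, for counting error only. Doublets were scored with Scrublet in scanpy 1.11.5, with 0.8% expected per 1000 barcodes, and were kept. Leiden clustering (leidenalg 0.10.2) at a resolution of 1.0 was run once over the endothelial barcodes of all libraries, using 2000 variable genes, 30 principal components and 15 neighbours. Before this, 336 genes (listed, mitochondrial or ribosomal) and 174 others at least 1.5-fold higher with platelet RNA were left out. Clusters were named from marker lists, with limits set after the clusters had been seen. The score was the mean log2 ratio of a class's markers to all endothelial barcodes, with 10 CPM added. A class other than gCap needed a score of at least 1 and 3 detected markers, and gCap a score of at least 0 and a median UMI count of at least 50% of the overall one. Clusters below these limits, or with more markers of another class among their leading genes, remained unnamed, and those with a score above 1 for a second cell type other than red cells or melanoma were called mixed. CPM of summed barcodes were compared with 1 CPM added, for genes of at least 5 CPM. The ratio script was tested on simulated data. Computations used Python 3.11.15, numpy 2.4.6, scipy 1.17.1 and pandas 2.3.3.

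The genes named were the 6 platelet genes of the rule and its markers, members of the platelet lists, up to 4 of each other list by level, and the 10 largest and 10 smallest ratios outside the platelet lists. Genes given for the UMIs of single barcodes were picked after their values were seen. Alternatives concerned UMI and gene limits, doublets, depth, clustering, class assignment, weighting, filters and each library in turn. A listed gene is counted with its lists but not reported here by itself.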

Additional observations from a re-analysis of the deposited data

How the results depend on the processing

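Of 101 alternative values over 10 results, 77 were close to the reported value, 19 moved and 5 changed direction, and the causes were not tested. The 6 h share over the control (1.27) was 1.11 after thinning to 2000 UMIs and 1.14 at a minimum of 20 UMIs, both with intervals that include 1. The 30 h share over the control (1.34) was 1.14 after thinning, 0.985 at a minimum of 10 UMIs and 0.937 at 20. The 30 h share over the 6 h share (1.05) was 0.791 at 10 UMIs, 0.822 at 20 and 0.934 without mixed and low-UMI clusters. With classes from each barcode's own markers, the gCap-like share was 1.16 times the aCap-like, 1.06 times the artery-like and 1.72 times the vein-like share, and with only the gene lists left out of clustering 6.07 times the artery-like one. That clustering put 681 barcodes with platelet RNA into 1 gCap-like cluster of 732, so its ratio follows from the name of that cluster and was not read as a class difference. The median log2 ratio of the core (5.15) was 5.32 without doublets, 5.75 at 10 UMIs and 2.79 with 10 CPM added, which also lowered the count of genes at least 2-fold higher from 160 to 97. The count of lower genes (5) was 19 without weighting, 0 in gCap-like barcodes, 10 without a filter, 1 with 10 CPM added, 9 at 10 UMIs, 1 without mixed and low-UMI clusters, and 12 to 15 when 1 library was left out (14 without the control, 15 without the 6 h and 12 without the 30 h library). All 19 core genes were at least 2-fold higher in every alternative run. The 20 UMI limit, the removal of clusters, the cluster-mix weighting and the clustering without lists alone were chosen after seeing the data. No paired analysis was possible because each group was 1 library and no test was made. Counts of 0 to 15 barcodes per library limit the artery-like, vein-like and lymphatic-like shares.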
